A study of Mus musculus with 8 samples.

Results

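The genes described here encode 6 ligands of the tumour necrosis factor (TNF) family that costimulate T cells: Cd70, Tnfsf9, Tnfsf4, Tnfsf8, Tnfsf14 and Tnfsf18. A member was a probe set of the deposited table whose single gene symbol is one of these names. All 6 were found, each with 1 probe set, among 21515 genes measured. RNA came from mouse spleen B cells, enriched by depleting CD43-carrying cells, in 4 groups of 2 arrays. LMP1 cells came from LMP1flSTOP/YFPflSTOP mice and YFP control cells from YFPflSTOP/+ mice, both female and of the breed (C57BL6XBALBc) F1. In these alleles a floxed STOP cassette keeps the inserted gene silent until Cre removes it. Both kinds of cell received TAT-Cre, a recombinase that enters cells, and YFP-positive cells were sorted after 2 days. CD40-activated cells and naive control cells came from male B6/J mice without these alleles. Activation consisted of 2 days with anti-CD40, an antibody that engages the receptor, and RNA of the naive cells was taken at once. The sort kept cells in which Cre had acted, and no sort is described for the B6/J cells. Both alleles act only in recombined cells; age, pooling of mice and the promoter of the alleles are not given in the sources used here. The replicates are labelled biological, with no statement that they came from separate mice, so the p-values measure the spread between these samples.

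Ligands of this family are membrane proteins that bind receptors on a neighbouring cell. These receptors then recruit TRAF adaptor proteins and activate NF-kB. CD70 binds CD27, Tnfsf9 (CD137 ligand) binds Tnfrsf9 (CD137), and Tnfsf4 (OX40 ligand) binds Tnfrsf4 (OX40). Tnfsf8 (CD30 ligand) binds Tnfrsf8 (CD30), Tnfsf14 (LIGHT) binds Tnfrsf14 (HVEM) and the lymphotoxin beta receptor Ltbr, and Tnfsf18 (GITR ligand) binds Tnfrsf18 (GITR). On activated B cells and dendritic cells such ligands prolong the survival, division and effector function of T cells. LMP1 of Epstein-Barr virus resembles a constantly active receptor and uses TRAF adaptors that CD40 also uses.

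The cells carried B cell markers in all groups, with 9 of 9 measured markers above the array median on both arrays of every group. Replicates lay over 1 log2 apart at 14 genes in LMP1, 34 in CD40-activated, 364 in naive control and 950 in YFP control. In LMP1 cells 5 of the 9 B cell markers were lower than in YFP control, and 0 were higher. Naive control arrays stood apart in markers of other cells. The summed log2 level of 7 T cell markers was 61.0 to 62.8 there, 45.1 to 46.8 in YFP control, 45.2 to 46.2 in CD40-activated and 39.3 to 40.0 in LMP1 cells, and 7 NK cell markers summed to 44.9 to 48.0 in naive control against 31.4 to 34.9 in all other groups. In bulk RNA, fewer cells of a type and less RNA per cell cannot be told apart.

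By position the members fall into 3 places. Tnfsf9, Cd70 and Tnfsf14 are consecutive among the measured protein-coding genes of chromosome 17. Tnfsf4 and Tnfsf18 are neighbours on chromosome 1, with the death ligand gene Fasl next to them, and Tnfsf8 lies beside another family gene, Tnfsf15, on chromosome 4. The RefSeq promoter table (GRCm38.p6) held 3 of the 6 members. It had no entry for Cd70, Tnfsf9 and Tnfsf4, so the windows shown do not cover the members that rose with LMP1. Of the members shown, Tnfsf8 differed between groups, while Tnfsf14 and Tnfsf18 did not pass the test in any comparison. Each window runs 5′ to 3′ on the gene's strand, Tnfsf8 at chr4:63861235-63861534 (minus strand), Tnfsf14 at chr17:57194132-57194431 (minus strand) and Tnfsf18 at chr1:161494407-161494706 (plus strand). Capitals mark matches, on either strand, to the kappaB consensus bound by NF-kB, to the AP-1 motif TGANTCA or to the TATA box TATAAA.

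Tnfsf8: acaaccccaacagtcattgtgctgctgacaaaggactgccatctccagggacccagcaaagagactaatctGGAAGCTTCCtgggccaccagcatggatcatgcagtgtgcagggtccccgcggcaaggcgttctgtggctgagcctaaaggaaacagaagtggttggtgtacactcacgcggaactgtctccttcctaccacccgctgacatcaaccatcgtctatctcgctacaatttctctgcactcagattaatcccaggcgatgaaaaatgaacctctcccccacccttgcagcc

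Tnfsf14: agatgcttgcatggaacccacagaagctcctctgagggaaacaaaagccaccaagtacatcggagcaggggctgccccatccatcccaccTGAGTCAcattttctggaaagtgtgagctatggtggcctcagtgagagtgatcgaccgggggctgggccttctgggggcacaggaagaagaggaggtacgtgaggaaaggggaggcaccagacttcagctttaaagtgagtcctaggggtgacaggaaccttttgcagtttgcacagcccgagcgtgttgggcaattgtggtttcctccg

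Tnfsf18: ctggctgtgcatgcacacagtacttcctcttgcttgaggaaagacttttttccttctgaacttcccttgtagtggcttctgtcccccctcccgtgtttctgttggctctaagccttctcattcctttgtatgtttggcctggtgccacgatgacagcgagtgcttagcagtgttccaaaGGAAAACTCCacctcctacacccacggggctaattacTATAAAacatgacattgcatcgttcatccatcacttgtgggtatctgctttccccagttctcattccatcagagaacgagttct

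The kappaB consensus matched once in the Tnfsf8 window, 179 to 170 bases before the start, and once in the Tnfsf18 window, 71 to 62 bases before it. Each match was listed at the same bases on both strands and is counted once. Of the 32851 promoters in the table, 11.2% held at least 1 kappaB match. Tnfsf14 held no kappaB match and 1 AP-1 match, 160 to 154 bases before the start, a motif found in 7.81% of promoters. A TATA box lay 34 to 29 bases before the start of Tnfsf18, against 13.6% of promoters with one on either strand. No 2 of these motifs overlapped. Such matches describe letters in a window and show no binding.

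LMP1 cells stood above every other group for Cd70, Tnfsf9 and Tnfsf4. The order of the remaining groups differed from gene to gene. Levels below are log2 expression values as normalized by the authors, whose array medians lay between 5.52 and 5.68. Levels of different genes are not set against each other, since probe sets differ in how they hybridise.

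**Figure D1:**
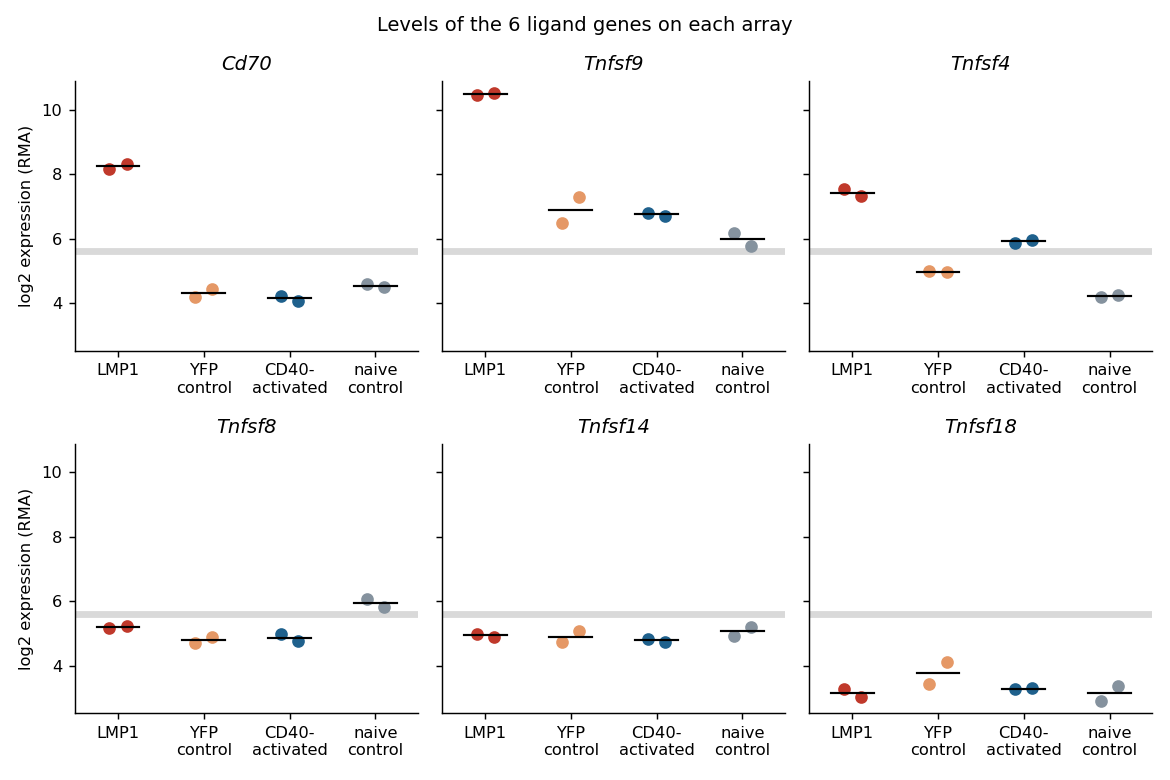
Log2 expression of each ligand gene (vertical axis) on the 2 arrays of each group (points), with the group mean as a bar, and the grey band is the range of array medians, 5.52 to 5.68. Cd70 reached 8.17 and 8.33 in LMP1 cells and stayed at or below 4.59 on the 6 other arrays, while Tnfsf14 and Tnfsf18 lay below the array median everywhere.

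Cd70 encodes the ligand of CD27, a receptor that naive and memory T cells carry. It measured 8.17 and 8.33 on the LMP1 arrays, 4.19 and 4.43 on the YFP controls, 4.24 and 4.07 on the CD40-activated arrays and 4.59 and 4.51 on the naive controls. Only the LMP1 arrays lay above the array median, and the 6 others lay from 1.04 to 1.46 below it. Among those 6 the naive controls were the highest, and YFP control and CD40-activated arrays overlapped.

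Tnfsf9 encodes the ligand of CD137, a receptor that T cells display after activation. Its level was 10.45 and 10.51 in LMP1 cells, 6.48 and 7.29 in YFP control, 6.79 and 6.72 in CD40-activated cells and 6.19 and 5.78 in naive control. The YFP control arrays were 0.81 apart and spanned both CD40-activated arrays. The naive controls were lowest, without overlap with any other group.

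Tnfsf4 encodes the OX40 ligand, which sustains CD4 T cells. It was at 7.53 and 7.32 in LMP1 cells, 5.88 and 5.96 in CD40-activated cells, 5.01 and 4.96 in YFP control and 4.19 and 4.26 in naive control. This was the only member whose 4 groups were all separate, in the order LMP1, CD40-activated, YFP control, naive control. How many of all genes had 4 separate groups was not counted.

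Tnfsf8 encodes the CD30 ligand, which T cells as well as B cells can carry. It was highest in naive control, at 6.09 and 5.83, followed by LMP1 at 5.17 and 5.25. CD40-activated arrays at 5.0 and 4.76 overlapped with YFP control arrays at 4.72 and 4.90. Outside the naive controls all values lay below the array median.

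Tnfsf14 encodes LIGHT, a ligand of HVEM and of the lymphotoxin beta receptor. It varied little, from 4.73 and 5.07 in YFP control to 5.0 and 4.91 in LMP1, 4.85 and 4.75 in CD40-activated and 4.92 and 5.22 in naive control. Every pair of groups next to each other in order of mean overlapped. Tnfsf18, encoding the GITR ligand, was at 3.28 and 3.03 in LMP1, 3.45 and 4.13 in YFP control, 3.28 and 3.31 in CD40-activated and 2.91 and 3.39 in naive control. It was between 1.55 and 2.72 below the median of its array throughout, and YFP control 2 was its highest array.

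**Figure D2:**
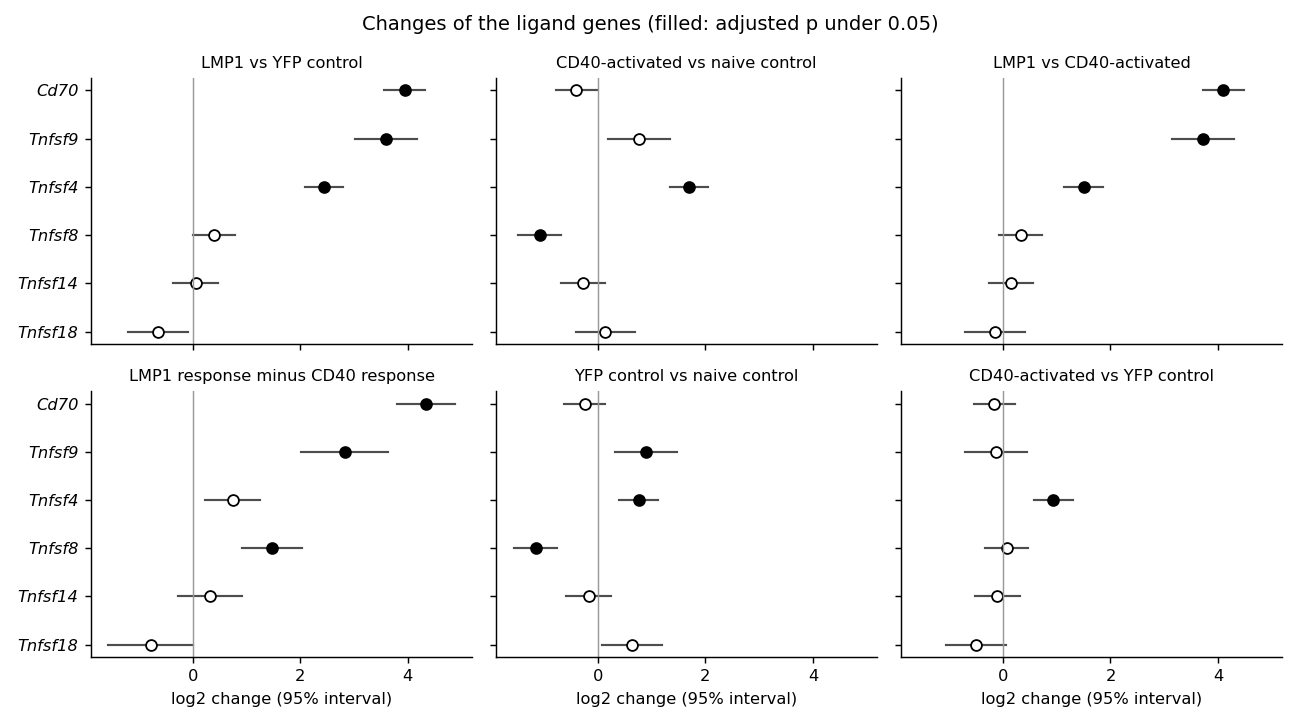
Log2 change of each ligand gene (horizontal axis, point with 95% confidence interval from limma) in each of the 6 comparisons; filled points passed at an adjusted p under 0.05. Cd70 and Tnfsf9 passed in both panels that set LMP1 cells against another group and in the difference of responses, and Tnfsf4 was the only member that passed between CD40-activated cells and YFP control.

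The comparison of LMP1 cells with YFP control addresses the effect of LMP1, with breed, sex, TAT-Cre and sort shared. Cd70 rose by 3.94 ± 0.17 (log2 change ± SE, n = 2 arrays per group), a 15.3-fold difference and the third highest increase of all genes. Tnfsf9 rose by 3.595 ± 0.26, or 12.1-fold, and Tnfsf4 by 2.44 ± 0.16, or 5.43-fold. The arrays of these genes did not overlap between the groups, a trait whose share over all genes was not counted. Thus 3 of 6 members rose and 0 fell, where 14.9% of all genes rose and 8.31% fell. The median change of the 6 members was 1.42 against -0.08 for all genes. Adjusted p-values from limma were 1.98e-06 for Cd70, 2.04e-05 for Tnfsf9 and 1.45e-05 for Tnfsf4. Tnfsf8 (0.40 ± 0.18, adjusted p = 0.143), Tnfsf14 (0.06 ± 0.19, adjusted p = 0.873) and Tnfsf18 (-0.64 ± 0.25, adjusted p = 0.0992) did not pass. The interval for Tnfsf14, from -0.36 to 0.47, holds no change as large as that of the 3 genes that rose. Tnfsf18 passed downward, at -0.98 (adjusted p = 0.013), when YFP control 1 was left out. Tnfsf8 passed upward, at 0.53 (adjusted p = 0.0477), when each set of arrays was quantile normalized on its own.

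Dendritic cells also express several of these ligands. Of 7 measured dendritic cell markers 2 were higher in LMP1 cells, Flt3 by 2.995 and the transcription factor gene Zbtb46 by 1.79, and 0 were lower. The summed level of the 7 was 43.0 to 44.4 in LMP1 cells and 38.1 to 39.4 in YFP control. Of 9 monocyte and macrophage markers 0 were higher and 3 lower in LMP1 cells. The part of other cell types in the changes of Cd70, Tnfsf9 and Tnfsf4 was not tested.

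Next, CD40-activated cells were set against naive control. Here the antibody and 2 days of culture cannot be told apart. Tnfsf4 rose by 1.70 ± 0.16 (n = 2 arrays per group, adjusted p = 1.41e-04), a 3.24-fold difference. Tnfsf8 fell by 1.08 on the log2 scale (SE 0.18, adjusted p = 0.00263), a 2.11-fold decrease. The arrays of both genes were separate between the groups, and the share of all genes with separate arrays was not counted. Of the 6 members 1 rose and 1 fell, where 11.0% of all genes rose and 6.65% fell, and the median change was -0.06 against -0.05 for all genes. Tnfsf9 was at 0.77 ± 0.26 (adjusted p = 0.0674) and Cd70 at -0.40 ± 0.17 (adjusted p = 0.15), and neither passed. Tnfsf9 passed with only these groups in the model (adjusted p = 0.0321), with array medians subtracted (0.865; adjusted p = 0.0378) and with YFP control 1 or 2 left out (adjusted p = 0.0109 for each). The interval of the Cd70 change, -0.78 to -0.01, lies below 0, but the intervals are not adjusted for the number of genes tested. Tnfsf14 was at -0.27 ± 0.19 (adjusted p = 0.369) and Tnfsf18 at 0.15 ± 0.25 (adjusted p = 0.745).

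T cell markers fell in the same comparison for 7 of 7 genes, with a median change of -2.33, NK cell markers fell for 5 of 7, with a median of -2.66, and erythroid and platelet markers fell for 3 of 5, with a median of -3.03. T cells are a known source of Tnfsf8. The plot of T cell markers, Tnfsf8 and Cd27 shows that all were highest on the naive arrays, while among the other groups Tnfsf8 was highest in LMP1 cells, where the T cell markers were lowest. Their part in the fall of Tnfsf8 was not tested.

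**Figure D3:**
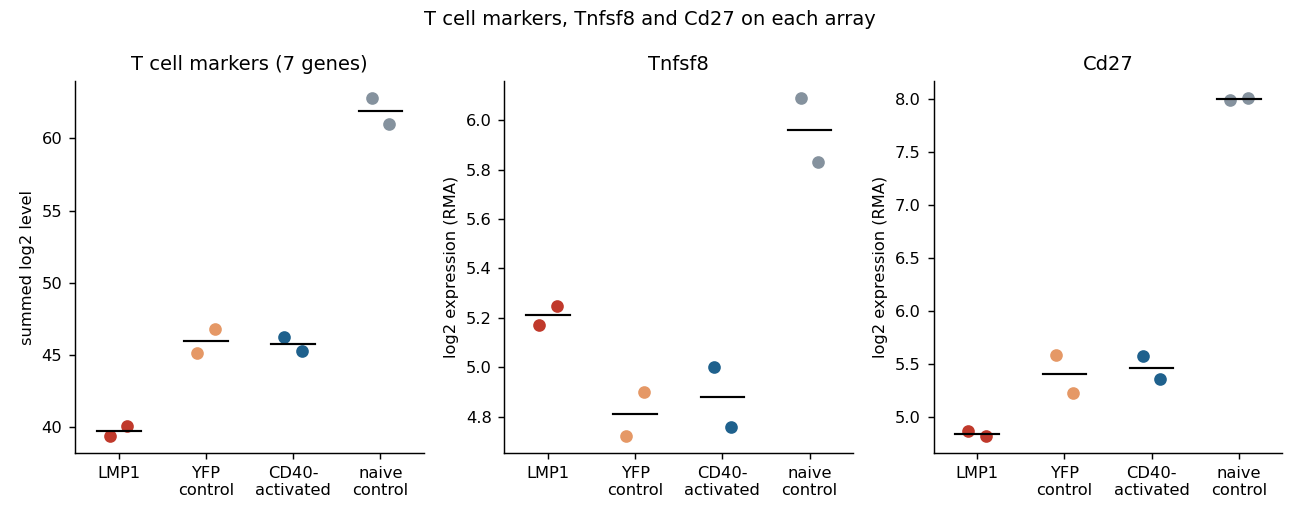
Summed log2 level of 7 T cell markers, and log2 expression of Tnfsf8 and of the CD70 receptor gene Cd27, on the 2 arrays of each group (points, with the group mean as a bar); the vertical axes do not start at 0. Naive control arrays were highest in every panel, at 61.0 and 62.8 for the marker sum, 5.83 and 6.09 for Tnfsf8 and 7.99 and 8.01 for Cd27.

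The activated cells were also compared directly. Cd70 was higher in LMP1 than in CD40-activated cells by 4.10 ± 0.17 (adjusted p = 1.38e-06, n = 2 arrays per group), Tnfsf9 by 3.73 ± 0.26 (adjusted p = 2.59e-05) and Tnfsf4 by 1.51 ± 0.16 (adjusted p = 2.68e-04). These are differences of 17.1-fold, 13.2-fold and 2.84-fold. So 3 of 6 members were higher and 0 lower, where 9.66% of all genes were higher and 5.17% lower. Tnfsf8 (0.33, interval -0.07 to 0.73), Tnfsf14 (0.16, interval -0.26 to 0.57) and Tnfsf18 (-0.14, interval -0.70 to 0.42) did not pass. Of the 7 dendritic cell markers 3 were higher in LMP1 cells, Flt3, Zbtb46 and Batf3, and 1 was lower, Siglech, and their part was not tested. Breed, sex, TAT-Cre, sort and set of arrays differ between these groups and cannot be told apart from the kind of activation.

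The difference of responses, LMP1 against YFP control minus CD40-activated against naive control, takes each response within its own set of mice. Only the CD40 response sets cultured cells against uncultured ones, so the difference also carries the culture. It was 4.34 ± 0.24 for Cd70 (adjusted p = 2.17e-05, n = 2 arrays per group), 2.83 ± 0.36 for Tnfsf9 (adjusted p = 0.00141) and 1.48 ± 0.25 for Tnfsf8 (adjusted p = 0.00635). Of the 6 members 3 had a positive difference and 0 a negative one, where the shares over all genes were 4.20% and 4.12%. For Tnfsf8 the difference combined a change of 0.40 that did not pass with LMP1 and the fall of 1.08 on the log2 scale with CD40 activation. T cell markers had a positive difference for 4 of 7 genes, with a median of 1.60, and NK cell markers for 5 of 7. Dendritic cell markers had one for 3 of 7, Flt3, Zbtb46 and Itgax. Their part in the differences was not tested. Tnfsf4 rose in both responses, and its difference of 0.75 ± 0.23 did not pass (adjusted p = 0.0785, interval 0.24 to 1.25). Without YFP control 1 it passed, at 0.77 (adjusted p = 0.0429), as did Tnfsf18, at -1.12 (adjusted p = 0.0331). With all arrays Tnfsf18 was at -0.78 (adjusted p = 0.227) and Tnfsf14 at 0.33 (adjusted p = 0.526).

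Both controls were compared to see what separates cultured, TAT-Cre treated and sorted YFP cells of F1 mice from naive cells of B6/J mice. Tnfsf9 was higher in YFP control by 0.90 ± 0.26 (adjusted p = 0.037, n = 2 arrays per group) and Tnfsf4 by 0.76 ± 0.16 (adjusted p = 0.0104). Tnfsf8 was lower, at -1.15 ± 0.18 (adjusted p = 0.00223). That made 2 of 6 members higher and 1 lower, where 10.9% of all genes were higher and 7.59% lower. Cd70 was at -0.24, Tnfsf14 at -0.17 and Tnfsf18 at 0.64 without passing. Tnfsf18 passed, at 0.98 (adjusted p = 0.0158), without YFP control 1. Tnfsf9 lost its call without YFP control 2 (0.495; adjusted p = 0.132), without either naive control (adjusted p = 0.052 and 0.18) and without any one LMP1 or CD40-activated array (adjusted p = 0.0678 to 0.0709). With only these groups in the model both Tnfsf9 (adjusted p = 0.136) and Tnfsf4 (adjusted p = 0.0827) missed the threshold. In YFP control T cell markers were below naive control for 7 of 7 genes, NK cell markers for 6 of 7 and erythroid and platelet markers for 3 of 5, and their part in the lower Tnfsf8 was not tested.

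Against the cultured YFP control, CD40-activated cells differed at 1 member. Tnfsf4 was higher by 0.94 ± 0.16 (adjusted p = 0.00462, n = 2 arrays per group), and no member was lower, where 7.75% of all genes were higher and 6.06% lower. Without CD40-activated array 2 it stood at 0.895 and missed the threshold (adjusted p = 0.0605). Tnfsf9 was at -0.13 (interval -0.70 to 0.44), Cd70 at -0.16 (interval -0.54 to 0.23), Tnfsf8 at 0.07 (interval -0.33 to 0.47), Tnfsf14 at -0.10 and Tnfsf18 at -0.50. Tnfsf18 passed, at -0.84 (adjusted p = 0.031), without YFP control 1. The CD40, control and LMP1 comparisons share arrays, so their values are set side by side and not correlated. For Tnfsf8 the changes from naive control were -1.08 in CD40-activated and -1.15 in YFP control cells.

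The receptors of these ligands were measured for all 7 genes. In LMP1 cells 3 of 7 were higher than in YFP control and 1 lower, beside 14.9% and 8.31% of all genes. Tnfrsf8, encoding the CD30 receptor of Tnfsf8, measured 9.21 and 9.18 in LMP1 cells, 5.43 and 5.84 in YFP control, 5.52 and 5.59 in CD40-activated and 4.94 and 5.30 in naive control cells. Its rise of 3.56 ± 0.20 (adjusted p = 7.29e-06) was the highest among the receptors, and it was 3.64 higher in LMP1 than in CD40-activated cells (adjusted p = 6.79e-06). Tnfrsf14 (HVEM), a receptor of Tnfsf14, rose by 1.28 ± 0.18 (adjusted p = 6.81e-04), with both LMP1 arrays at 9.04 and YFP controls at 7.90 and 7.62. Tnfrsf4 was higher by 0.57 ± 0.18 (adjusted p = 0.0483) and Cd27 lower, at -0.57 ± 0.18 (adjusted p = 0.0471). Of the 7 T cell markers 4 were lower in LMP1 cells than in YFP control and 0 higher. Their part in the lower Cd27 was not tested. The Tnfrsf4 call was lost under 12 of 15 alternatives and the Cd27 call under 10 of 15, each with the omission of YFP control 1, either LMP1 array, either naive control or either CD40-activated array among them, and the Tnfrsf4 call also without YFP control 2. Tnfrsf9 (0.41), Tnfrsf18 (0.20) and Ltbr (-0.33) did not pass.

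With CD40 activation 0 of 7 receptors rose and 2 fell, beside 11.0% and 6.65% of all genes, so that a count of 0 among 7 is near the background. Cd27 fell by 2.53 on the log2 scale (SE 0.18, adjusted p = 3.77e-05), from 7.99 and 8.01 in naive control to 5.58 and 5.36, and Tnfrsf14 fell by 0.895 (adjusted p = 0.00737). The Tnfrsf14 call was lost when either CD40-activated array was left out. T cells carry Cd27, and it was lower in YFP control than in naive control as well, at -2.59 (adjusted p = 3.32e-05), along with all 7 T cell markers, whose part in it was not tested. Tnfrsf8 (0.44), Tnfrsf4 (0.24), Ltbr (-0.16), Tnfrsf9 (-0.18) and Tnfrsf18 (-0.29) did not pass. The difference of responses passed for Tnfrsf8 (3.13, adjusted p = 2.32e-04), Tnfrsf14 (2.18, adjusted p = 8.71e-04) and Cd27 (1.97, adjusted p = 0.00146). Between CD40-activated cells and YFP control 0 of 7 receptors passed in limma, and Tnfrsf4 had the lowest adjusted p, 0.116.

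**Figure D4:**
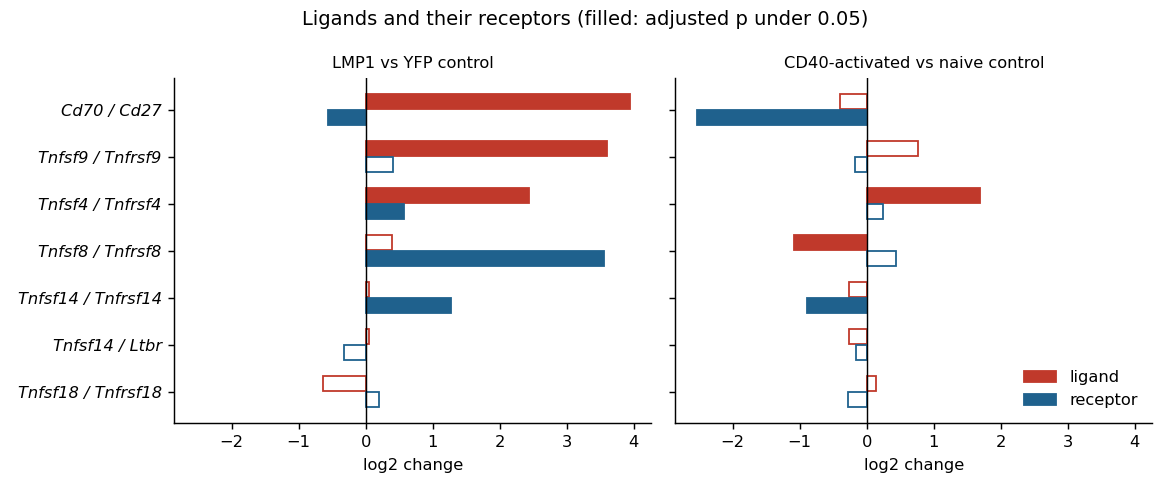
Log2 change (horizontal axis) of each ligand gene and its receptor gene, in pairs, for LMP1 against YFP control and CD40-activated against naive control; filled bars passed at an adjusted p under 0.05, and Tnfsf14 is drawn with each of its receptors. With LMP1 the ligand rose in the Cd70, Tnfsf9 and Tnfsf4 pairs, at 3.94, 3.595 and 2.44. The receptor alone rose in the Tnfsf8 and Tnfrsf14 pairs, at 3.56 and 1.28. Tnfrsf4 rose along with its ligand, at 0.565, and Cd27 was lower, at -0.565.

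Tnfsf18 and Tnfrsf18 passed in none of the 6 comparisons with all arrays in the model.

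Among 10 measured other ligands of the TNF family 4 rose with LMP1 and 0 fell, where 14.9% of all genes rose and 8.31% fell, with a list median of -0.15 against -0.08 for all genes. The inflammatory cytokine gene Tnf rose by 2.31 ± 0.18 (adjusted p = 2.94e-05), lymphotoxin alpha (Lta) by 1.51 ± 0.19 (adjusted p = 3.87e-04) and Tnfsf15, a ligand of the death domain receptor Tnfrsf25, by 1.22 ± 0.16 (adjusted p = 4.85e-04). With CD40 activation 2 of 10 rose, Tnf by 2.04 (adjusted p = 8.74e-05) and Lta by 0.72 (adjusted p = 0.0278), and 3 fell, where 11.0% of all genes rose and 6.65% fell. Cd40lg and Fasl, ligand genes typical of T and NK cells, fell by 2.06 and 1.15 on the log2 scale (adjusted p = 8.21e-05 and 0.0195), along with the T and NK cell markers, whose part was not tested. The Lta call was lost under 7 of 15 alternatives, among them the omission of either naive control, either CD40-activated array or either LMP1 array, and the Fasl call without naive control 1 or either CD40-activated array. Lta was lower in YFP control than in naive control, at -1.175 (adjusted p = 0.00281 in limma). CD40-activated cells exceeded YFP control at Lta by 1.895 (adjusted p = 3.17e-04). In LMP1 against CD40-activated cells Lta was at -0.385 (adjusted p = 0.248).

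Of 18 measured genes of TRAF and NF-kB signalling 8 rose with LMP1 and 2 fell, beside 14.9% and 8.31% of all genes, with a list median of 0.48 against -0.08 for all genes. Tnfaip3, a feedback inhibitor of NF-kB, rose by 2.89 ± 0.17 (adjusted p = 8.21e-06), Nfkb2, the NF-kB subunit of the alternative pathway, by 2.35 ± 0.27 (adjusted p = 2.13e-04) and the adaptor gene Traf1 by 2.08 ± 0.17 (adjusted p = 3.9e-05). Traf5 fell by 1.73 on the log2 scale (adjusted p = 2.53e-04), and Rel, another NF-kB subunit, was at -0.53 (adjusted p = 0.0458), a call lost under 8 of 15 alternatives, including without YFP control 2 or any one LMP1 or CD40-activated array. With CD40 activation 3 of 18 rose and 1 fell, counts near the 11.0% and 6.65% of all genes. Traf1 rose by 1.68 (adjusted p = 2.19e-04), the inhibitor gene Nfkbie by 1.58 (adjusted p = 0.0117) and Tnfaip3 by 0.775 (adjusted p = 0.0102), and Traf5 fell by 1.5 (adjusted p = 9.43e-04). Nfkbie also rose with LMP1, by 1.29 (adjusted p = 0.022), a call lost without either LMP1 array or with only the groups compared. Nfkb2 did not pass with CD40 activation, at 0.615 (adjusted p = 0.153 in limma). It was lower in YFP control than in naive control, at -1.605 (adjusted p = 0.00319). CD40-activated cells exceeded YFP control at Nfkb2 by 2.22 (adjusted p = 7.87e-04). The difference between LMP1 and CD40-activated cells was 0.125 (adjusted p = 0.854). With CD40 activation the Nfkbie and Tnfaip3 calls were each lost under 3 of 15 alternatives, among them the omission of either CD40-activated array, and for Nfkbie that of naive control 2. The 2 controls differed at this list too, with 1 of 18 higher and 5 lower in YFP control, beside 10.9% and 7.59% of all genes. Against YFP control 6 of 18 were higher and 2 lower in CD40-activated cells, beside 7.75% and 6.06%. In LMP1 against CD40-activated cells 3 were higher and 1 lower, beside 9.66% and 5.17%.

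Of 7 costimulatory and adhesion genes outside the family 4 rose with LMP1 and 4 with CD40 activation, and 0 fell in either, where 14.9% and 11.0% of all genes rose. Cd80, a ligand of CD28, rose by 3.78 ± 0.43 with LMP1 (adjusted p = 2.14e-04) and by 3.94 ± 0.43 with CD40 activation (adjusted p = 3.14e-04). Its YFP controls lay at 6.46 and 8.23, and YFP control exceeded naive control by 2.64 (adjusted p = 0.00293). The adhesion ligand gene Icam1 rose by 2.65 and 1.05 (adjusted p = 3.64e-05 and 0.00864). Slamf1 rose with LMP1 by 1.53 (adjusted p = 1.54e-04), and Cd40 rose with LMP1 by 1.28 (adjusted p = 0.00363) and with CD40 activation by 0.99 (adjusted p = 0.019). The Icam1 and Cd40 calls with CD40 activation were lost without either CD40-activated array, and the Cd40 call also without naive control 2.

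Most genes flanking the members on the chromosome did not pass with LMP1, as was so for all genes, of which 14.9% rose and 8.31% fell. On chromosome 17 the order was Dennd1c, Tubb4a, Tnfsf9, Cd70, Tnfsf14, Trip10 and Gpr108. With LMP1 Tubb4a was at -0.04 (adjusted p = 0.941), Tnfsf14 at 0.06, Trip10 at 0.68 (adjusted p = 0.0988) and Gpr108 at -0.48 (adjusted p = 0.142), none of which passed, and Dennd1c fell by 1.66 on the log2 scale (adjusted p = 7.85e-04). On chromosome 1 Tnfsf4 lay between Tex50, at -0.51 with LMP1 (adjusted p = 0.154), and Tnfsf18, at -0.64. Beyond them Ankrd45 (-0.21), Fasl (-0.52) and Suco (-0.20) did not pass with LMP1. On chromosome 4 Tnfsf15 rose with LMP1 by 1.22, while Tnfsf8, next to it, was at 0.40, Tnc at 0.41, Tex48 at -0.11 and Pappa at -0.04 without passing. With CD40 activation Fasl was the only flanking gene outside the members that passed in limma, at -1.15 (adjusted p = 0.0195). Of all genes 11.0% rose and 6.65% fell there.

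**Figure D5:**
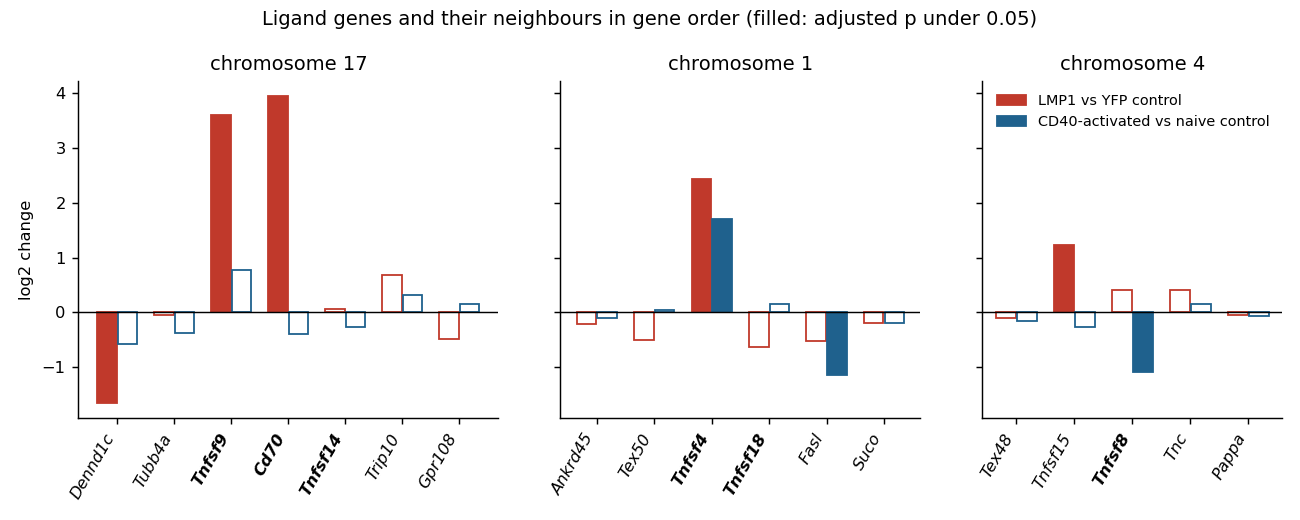
Log2 change (vertical axis) of the ligand genes, in bold, and of the 2 nearest measured protein-coding genes on either side, in chromosome order and not to scale, with LMP1 and with CD40 activation; filled bars passed at an adjusted p under 0.05. On chromosome 17 Tnfsf9 and Cd70 rose side by side with LMP1, at 3.595 and 3.94, and the adjacent Tubb4a and Tnfsf14 were at -0.04 and 0.06.

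Genes with the most similar profiles over the 8 arrays were sought for the 4 members that passed in any comparison. The measure was the root mean square difference in log2 level after each gene's mean over the arrays was subtracted, given as a description of 8 arrays that share groups. Nearest to Cd70 were Asns, an asparagine synthetase gene (0.277), the chemokine gene Cxcl9 (0.306) and Tnfrsf8 (0.36). Nearest to Tnfsf9 were the granzyme B inhibitor gene Serpinb9 (0.225), Tnip3, encoding a partner of Tnfaip3 (0.267), and again Tnfrsf8 (0.277). Tnfsf4 was nearest to the mitochondrial carrier gene Slc25a13 (0.115) and to Mcm10 (0.156) and Cdc45 (0.173), which act in DNA replication. Tnfsf8 was nearest to Dock5 (0.132), the growth factor gene Pdgfb (0.132) and Osbpl3 (0.14). Among the 3 members that rose with LMP1 the difference was 0.5 for Cd70 and Tnfsf9, 0.83 for Tnfsf9 and Tnfsf4 and 1.00 for Cd70 and Tnfsf4.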

How the data were processed

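The authors deposited log2 values for each probe set. The submitters' processing notes name RMA, which corrects background, quantile normalizes and summarises probes, and oligo, whose version and settings are not given in the sources used here. LMP1 and YFP control arrays are marked as re-analysed, per the labels. Of 25349 probe sets 22225 had 1 gene symbol in the platform's table, 616 several and 2508 none, and those with several or none were left out. The brightest probe set was kept for 640 genes with more than 1, leaving 21515 genes.

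All 8 arrays were fitted with limma 3.58.1 in R 4.3.3 as 4 group means (lmFit, eBayes, 4 residual degrees of freedom). Two-sided p-values were adjusted by Benjamini-Hochberg over all genes of a comparison, the threshold being 0.05. The code was checked on simulated data. Having 2 arrays per group limits the precision.

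The members, gene lists, comparisons and alternatives were chosen with earlier results of these data known. Named genes were all members and all receptors, up to 3 highest and 2 lowest changes per other list, 2 flanking genes on each side, and the 3 nearest profiles. Gene order came from RefSeq (GRCm38.p6). Replicate numbers did not pair the arrays (correlations of deviations from -0.10 to 0.07 between groups).

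The alternatives were a replicate block, array medians subtracted, a model of only the groups compared, trended and robust eBayes, leaving out genes with a mean level under the 25th percentile, quantile normalization of each set alone, the mean of a gene's probe sets, and each array left out in turn. Not analysed here were Tnfsf12, Tnfsf13, Traf3, Map3k14, Ripk1, Chuk and Nfkb1.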

Additional observations from a re-analysis of the deposited data

Results flagged for a closer look

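In all, 6 tests of the difference between the LMP1 and CD40 responses passed among the 6 ligands and 7 receptors. Among the ligands the difference was 4.34 (log2) for Cd70, 2.83 for Tnfsf9 and 1.48 for Tnfsf8. Among the receptors it was 3.13 for Tnfrsf8, 2.18 for Tnfrsf14 and 1.97 for Cd27. The difference was positive in all of them, and it came from an LMP1 increase for Cd70, Tnfsf9 and Tnfrsf8, from changes that passed in opposite directions for Tnfrsf14, and mainly from lower levels in CD40-activated than in naive cells for Tnfsf8 and Cd27. The naive cells were not cultured, and the cultured YFP control was below them too, at -1.15 for Tnfsf8 and -2.59 for Cd27 beside -1.08 and -2.53 in CD40-activated cells, so the difference of responses carries the culture as well as the activation.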

How the results depend on the processing

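Over 15 alternatives, 12 of the 15 member changes that passed kept their direction and their call under every alternative run, and 0 turned. The exceptions were Tnfsf9 and Tnfsf4 between the controls and Tnfsf4 between CD40-activated cells and YFP control. Several alternatives leave a member's log2 change as it was and could alter only its call. These were the replicate block, trended and robust eBayes, the model of only the groups compared and the omission of dim genes. The omission of an array outside the comparison was another, as was the mean of probe sets, since no member has several. The count of members changed stayed within 1.5 times in 85 of 89 recomputed values. It was 1 in place of 3 between the controls with only those groups in the model. With arrays left out in turn it ranged from 3 to 5 for the difference of responses and from 0 to 2 between CD40-activated cells and YFP control, both highest counts coming without YFP control 1 and the 0 without CD40-activated array 2. With the replicate block the counts were 3, 2, 3, 3, 3 and 1 in the order of comparison of the report, as in the main model. Some changes that did not pass turned sign. With quantile normalization within each set, Cd70 (0.00375) and Tnfsf14 (0.0325) turned between CD40-activated cells and YFP control, as did Cd40lg with LMP1 (0.025). With arrays left out in turn, Tnfsf14 ranged from -0.115 to 0.225 with LMP1 and from -0.27 to 0.07 between CD40-activated cells and YFP control, where Tnfsf8 ranged from -0.05 to 0.19 and Tnfsf9 from -0.535 to 0.275. With CD40 activation Tnfsf18 ranged from -0.095 to 0.385 and Tnfrsf9 from -0.395 to 0.035. The cause was not tested. The difference of responses uses all 4 groups and has no model with fewer. Tnfsf18 was left out with the dim genes and has no value there. Over all genes the number that passed moved more, from 4995 to between 2647 and 7090 with LMP1, from 3803 to between 1576 and 5631 with CD40 activation, from 3191 to between 1275 and 6360 between LMP1 and CD40-activated cells, from 1790 to between 707 and 4199 for the difference, from 3986 to between 1537 and 5955 between the controls and from 2970 to between 843 and 5471 between CD40-activated cells and YFP control. List counts stayed within 1.5 times in 580 of 712 recomputed values. Tnfsf14 and Tnfsf18 lay below the array median throughout, which limits what their values show. The same limit applies to Cd70 outside LMP1 cells, where it lay from 1.04 to 1.46 below the array median, and to Tnfsf4 in both controls.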
